A study of Homo sapiens with 2 samples.

Results

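FOS and JUN family proteins are the subunits of AP-1, a transcription factor, and their transcripts were followed here in Y79 retinoblastoma cells with and without an siRNA against Ep-CAM. The set holds 9 genes, FOS, FOSB, FOSL1, FOSL2, JUN, JUNB, JUND, ATF3 and BATF, of the 30982 gene names on the arrays, and all 9 were found, with 14 probes at 23 spots. The genes were selected on family membership after the falls of FOS and JUN and the rise of ATF3 between these same arrays were known, so that the values of this contrast are a description and carry no test. Every probe listed under a member's name and every spot of it was kept.

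AP-1 is a dimer of basic leucine zipper proteins that binds short palindromic sites in promoters and enhancers. Fos proteins cannot pair with each other and need a Jun partner, while Jun proteins also pair among themselves and with ATF proteins. FOS and JUN are immediate early genes, whose transcripts appear soon after serum, growth factors or stress act on a cell through mitogen-activated protein kinases and decay quickly, and AP-1 is best known for linking such signals to proliferation, invasion and cell death.

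Y79 cells in 2 states were compared, on 1 array each. The first array was hybridized with RNA of Y79 cells that had received no siRNA, and the second with RNA of Y79 cells 48 h after siRNA against Ep-CAM, a cell surface adhesion molecule whose gene carries the older symbol TACSTD1. Y79 is an established human retinoblastoma line that grows in suspension. The study's text states that both cultures had been exposed to 5′-azacytidine, a DNA demethylating agent, to restore Ep-CAM. The sample labels do not mention this exposure. The labels and the study's results section give untreated cells as the control of the arrays. A legend of the study also names a nonsilencing siRNA. With untreated cells, silencing of Ep-CAM, entry of an siRNA and the reagent cannot be told apart in any value below. The arrays also cannot tell fewer cells that carry a transcript from less transcript per cell. With 1 array per condition these arrays give no difference a replicate check, although the study writes of biologic replicates. The study also reports quantitative PCR in which FOS and JUN were lower in siRNA-treated than in untreated cells. The spread given beside a difference is that between repeated spots of a probe, which had a median SD of 0.15 on the log2 scale over 194 probes.

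Of the 43376 transcript spots, 70.4% of the untreated and 68.0% of the siRNA-treated array were well above background, which is the software's mark for a spot that was detected. The single TACSTD1 probe (15.6 and 12.0 in processed signal) was detected on neither array, so that the arrays did not check the silencing. GAPDH had a log2 ratio of -0.03 and the measured ACTB probes lay between -0.32 and 0.02. Both arrays lay side by side on the same slide. Among 11 photoreceptor and retinoblastoma markers found on the arrays, 5 were measured on both arrays and 5 on neither, with THRB detected only in untreated cells. CRX, OTX2, ARR3, ENO2 and MYCN were measured and RCVRN, RXRG, PDE6H, NEUROD1 and SYP were not. Also measured on both arrays were 4 of 5 glia, 3 of 5 pigment epithelium, 5 of 6 fibroblast and endothelium and 4 of 4 blood markers. Detection of these markers therefore did not set the labelled cell type apart from others. No marker list of glia, pigment epithelium or fibroblasts and endothelium held a gene past 2-fold, and their summed signals were 270 and 288, 682 and 645, and 517 and 457 in untreated and siRNA-treated cells. Of 4 blood markers, HBB, a globin chain, rose from 340 to 1263, while PTPRC, CD3E and CD14 had log2 ratios between -0.16 and 0.12, and the part of HBB in other results was not tested. The lower right corner of the arrays held 17.0% of the probes tested but 282 of the 391 that were higher after siRNA. Falls were more frequent there too, with 1.63% of the measured corner probes lower at 2-fold against 0.646% outside the corner. Each member spot that lay in the corner is therefore named.

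The promoters of the 3 members past 2-fold by their brightest probe are shown to let a reader see the sites that AP-1 and CREB family proteins are known to bind. Each is 250 bases up to the start of transcription in RefSeq (GRCh38.p14), 5′ to 3′ in the gene's own direction. Capitals mark matches on either strand to TGANTCA (the AP-1 site), TGACNTCA (its longer CRE-like form) or TGACG (the core of a CRE, which overlaps TGACNTCA where N is G). The regions are chr14:75278578-75278827 on the plus strand, chr1:58784048-58784297 on the minus strand and chr1:212565157-212565406 on the plus strand, the last being the upstream entry of a pair for ATF3.
FOS promoter: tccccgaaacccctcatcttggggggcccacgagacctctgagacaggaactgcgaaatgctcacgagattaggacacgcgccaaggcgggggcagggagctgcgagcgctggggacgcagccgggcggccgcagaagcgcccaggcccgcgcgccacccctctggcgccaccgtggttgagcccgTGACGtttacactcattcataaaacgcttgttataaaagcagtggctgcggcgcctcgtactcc
JUN promoter: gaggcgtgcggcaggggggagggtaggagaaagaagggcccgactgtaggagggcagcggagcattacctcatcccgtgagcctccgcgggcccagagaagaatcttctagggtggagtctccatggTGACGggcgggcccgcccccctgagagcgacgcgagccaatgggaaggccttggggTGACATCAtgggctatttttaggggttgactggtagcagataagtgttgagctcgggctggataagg
ATF3 promoter: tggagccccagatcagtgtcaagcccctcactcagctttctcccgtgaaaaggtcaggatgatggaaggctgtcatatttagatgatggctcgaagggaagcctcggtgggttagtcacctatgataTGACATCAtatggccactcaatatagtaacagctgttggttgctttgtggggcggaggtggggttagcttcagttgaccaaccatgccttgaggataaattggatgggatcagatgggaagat

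FOS held a TGACG from 64 to 60 bases before its start. JUN held the 8-base form TGACATCA from 67 to 60 bases before its start and a TGACG from 123 to 119, and the upstream ATF3 entry held the same TGACATCA from 123 to 116. Of 35116 promoters searched over the same 250 bases, 2.37% held TGACATCA, 6.87% any TGACNTCA, 6.57% a TGANTCA and 21.2% a TGACG. None of the 9 promoter entries of 8 members held TGANTCA, and FOSL1 had no entry. FOSB (60 bases before the start), JUNB (137), FOSL2 (66 and 201) and JUND (200 and 86) held TGACG on either strand, that of JUND at 200 being part of a full palindromic TGACGTCA, which 1.65% of promoters held. The BATF entry and the downstream ATF3 entry held none of the 3 motifs. These matches describe letters and say nothing of binding in Y79 cells.

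**Figure D1:**
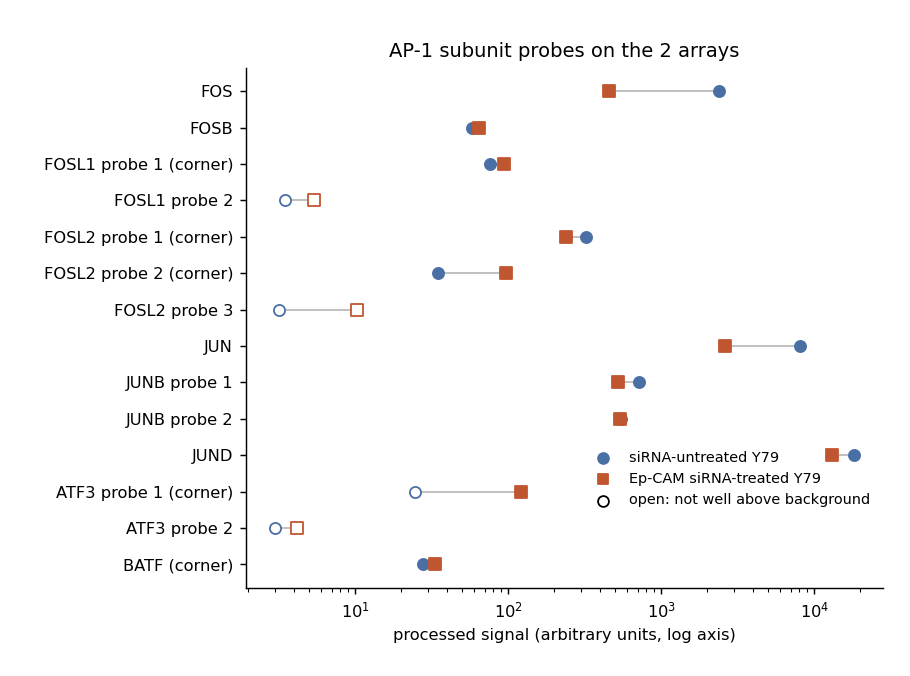
Processed signal (arbitrary units, log axis) of the 14 probes of 9 AP-1 subunit genes on the untreated array (circles) and the siRNA-treated array (squares), with JUN as the mean of 10 spots and open symbols where a probe was not well above background. FOS and JUN sit far to the left after siRNA (454 against 2372 and 2613 against 8048), the corner probe of ATF3 and the second probe of FOSL2 sit to the right, and the other measured probes changed by less than 2-fold.

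Among the Fos subunits, FOS was the member that changed most. FOS, the founding proto-oncogene of the family, went from a processed signal of 2372 without siRNA to 454 with it, with errors of 237 and 45.6 by the model of the scanner software. After scaling of each array to its median this was a log2 ratio of -2.42, a 5.36-fold fall. Before any correction the mean brightness was 2136 ± 238 (SD over 65 pixels) and 441 ± 52.5 (SD over 63 pixels), against local backgrounds of 39.0 and 40.5. The spots around it did not share the fall, since 259 measured spots within 10 rows and columns had a median log2 ratio of -0.07 and only 2 of them were lower at 2-fold. The value rests on 1 spot on each array, at row 30 and column 14 and so outside the corner. Of the 27010 probes measured on both arrays, 3 fell further, those of AK128099, TLN2 and LDHB. The probe is a 60-mer at chr14:74817967-74818026 on hg17, and its first 30 bases show which part of the transcript was read.
FOS probe: agagggttcctgtagacctagggaggacct

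The other Fos subunits did not share this fall. FOSB, the nearest relative of FOS and like it inducible, had 58.2 and 64.2 in untreated and siRNA-treated cells, a log2 ratio of 0.11 that is within the spread of repeated spots. FOSL1, which encodes Fra-1, a Fos protein without the transactivating tail of FOS, had 76.0 and 93.5 at its brighter probe, a log2 ratio of 0.26. That spot lay in the corner, and the other FOSL1 probe was not detected on either array (3.46 and 5.37).

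FOSL2, which encodes Fra-2, gave opposite directions at its measured probes. The brighter probe had 320 and 238, a log2 ratio of -0.47, which does not pass 2-fold. The dimmer measured probe rose from 34.7 to 96.1, a log2 ratio of 1.43, and the remaining probe was not detected on either array (3.17 and 10.2). Both measured spots lay in the corner. Around the brighter spot 6 of 255 neighbours were lower and 17 higher at 2-fold, and around the dimmer one 3 of 141 were lower and 19 higher, with a median log2 ratio of 0.28. The probes lie on chromosome 2 at chr2:28546798-28546857 and chr2:28547171-28547230 on hg17, close together, so no direction is given for FOSL2.

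Among the Jun subunits, JUN fell at every spot that carried its probe. JUN, the main activating partner of FOS, was printed at 10 spots, whose signals ran from 7099 to 10100 with a median of 7889 in untreated cells and from 2382 to 2921 with a median of 2602 in siRNA-treated cells. The lowest untreated spot was far above the highest siRNA-treated spot. The mean was 8048 ± 889 (SD, 10 spots) in untreated and 2613 ± 178 (SD, 10 spots) in siRNA-treated cells, and the log2 ratio was -1.65 ± 0.11 (SD, 10 spots), a 3.15-fold fall. These spots are technical repeats on a single pair of arrays, and their SD leaves out any difference between cultures. JUN was the probe with the lowest mean ratio among the 194 repeated probes. Of all probes measured on both arrays, 20 fell further. The probe is at chr1:58959750-58959809 on hg17, and its first 30 bases are shown for the same purpose as those of FOS.
JUN probe: gggtgccaactcatgctaacgcagcagttg

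The JUN ratio was also read by the position of the spot and before the correction by the software. The 8 spots outside the corner had log2 ratios from -1.75 to -1.50 with a mean of -1.61, and the 2 in the corner had -1.79 and -1.86, both below that range. In the raw brightness, before background subtraction and trend correction, the 10 spots differed less, with log2 ratios from -1.74 to -1.55 and a coefficient of variation in untreated cells of 7.04% against 11.0% after correction. In siRNA-treated cells it was 6.34% before and 6.82% after. The median log2 ratio of the spots around each JUN spot lay between -0.10 and 0.02.

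**Figure D2:**
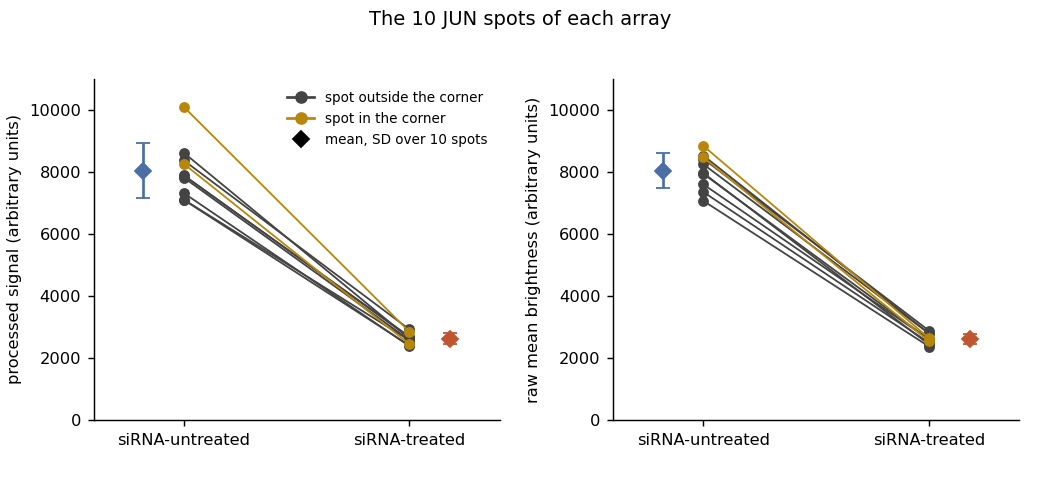
The 10 JUN spots on both arrays, as processed signal (left) and raw mean brightness (right) in arbitrary units, each line joining a spot's values, with diamonds and bars for the mean and SD over 10 spots. Every line falls, from 7099 or more to 2921 or less in processed signal, and the widest spread is that of the corrected untreated values.

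JUNB and JUND changed by less than 2-fold. JUNB, which often restrains JUN at shared targets, had 2 measured probes outside the corner that differed from each other, with signals of 713 and 519 at the brighter, a log2 ratio of -0.49, and of 545 and 539 at the other, a log2 ratio of -0.05. The first lies at chr19:12763998-12764057 and the second at chr19:12765047-12765106 on hg17. Under 3 settings that make the second probe the brighter one (plain background subtraction, normexp correction without an aberrant spot, and the series value table), the gene's value lay between -0.06 and -0.04.

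JUND, the Jun subunit that most cells hold without stimulation, had signals of 18112 and 13013, a log2 ratio of -0.51. Bright probes as a whole were lower on the siRNA-treated array. Among 2212 measured probes with an untreated signal of 1000 or more the median log2 ratio was -0.26, against -0.03 over all measured probes, and 25.3% of these bright probes had a ratio as low as that of JUND or lower. Quantile normalization, which forces both arrays to the same distribution of signals, left JUND at -0.16, JUN at -1.35 and FOS at -2.28. Among the same bright probes 5 had a ratio as low as JUN, itself included, and 2 as low as FOS, itself included.

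**Figure D3:**
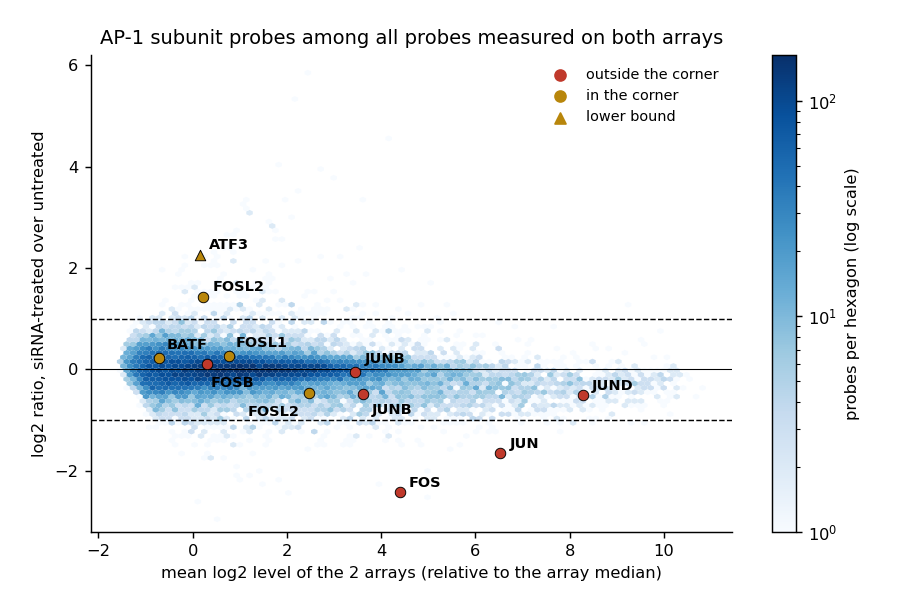
Log2 ratio of siRNA-treated over untreated cells against the mean log2 level of both arrays, for 27010 probes measured on both arrays (shaded hexagons, log colour scale) and for the AP-1 subunit probes with a ratio (points, with a triangle for a lower bound and dashed lines at 2-fold). FOS (-2.42) and JUN (-1.65) lie among the lowest probes of their brightness. JUND (-0.51) lies inside a cloud that slopes downward on the bright side. The points above the upper line, ATF3 and the dimmer FOSL2 probe, are corner spots.

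ATF3 and BATF are bZIP proteins that pair with Jun. ATF3, a stress-induced factor that represses many promoters, was read at 24.7 in untreated cells, where it was not well above background, and at 121 in siRNA-treated cells. With the undetected value taken as it was read, this was 4.80-fold higher (a log2 value of 2.26, treated as a bound). The bound holds for this processing only. In raw brightness the spot had 86.3 ± 18.4 (SD over 62 pixels) and 182 ± 61.3 (SD over 59 pixels) against local backgrounds of 38.5 and 36.0. The spot was at row 488 and column 80 in the corner. Of its 192 measured neighbours 35 were higher and 4 lower at 2-fold, and their median log2 ratio was 0.49, which left 1.78 after subtraction. With the raw median brightness of the series table, from which no background is taken, it was 0.97 and so no longer past 2-fold. The other ATF3 probe, outside the corner, was detected on neither array (2.97 and 4.15). The probes lie at chr1:209182251-209182310 and chr1:209181232-209181291 on hg17. Whether the rise belongs to the transcript or to the place of the spot was not tested. BATF, an inhibitory partner of Jun best known from lymphocytes, had 27.6 and 33.0, a log2 ratio of 0.22, at a corner spot.

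**Figure D4:**
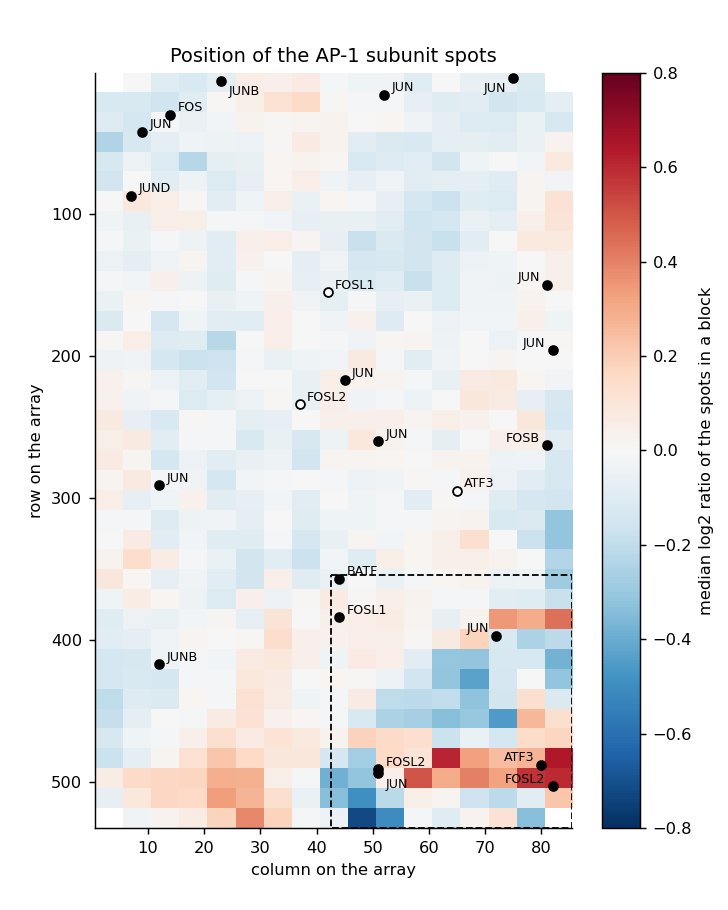
Position of the 23 AP-1 subunit spots on the array by row and column, over the median log2 ratio of the measured spots in blocks of the array (colour scale), with open points for spots well above background on neither array and a dashed line around the corner. FOS, the JUNB spots, JUND, FOSB and 8 of the 10 JUN spots lie outside the corner. At its lower right, the ATF3 corner spot and the dimmer measured FOSL2 spot lie where the blocks are raised. The brighter FOSL2 spot lies in a block with a median of 0.04.

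By the brightest probe of each gene, 2 of 9 members were lower and 1 was higher at 2-fold, and 6 were not called. Over all 23793 gene names tested, 0.883% were lower and 1.36% higher, and nothing is read from the members' share since the genes were picked with this contrast in view. By single probes, 2 of the 11 member probes tested were lower and 2 higher, against 0.931% and 1.33% of all 29421 probes tested. Both lower probes lay outside the corner or mostly so, where 0.68% of probes were lower. Both higher probes lay inside it, where 5.63% were higher. Without the corner 2 members were lower and 0 higher. The median log2 ratio of the 8 members measured on both arrays was -0.48, beside -0.03 over 22091 measured gene names.

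The order of the members by the log2 ratio of the brightest probe ran from FOS and JUN to JUND, JUNB and FOSL2, then FOSB, BATF and FOSL1, with ATF3 as a bound on top. FOS and JUN differed by 0.77 and JUN and JUND by 1.14, each over the median SD of repeated spots, although the FOS and JUND values rest on 1 spot on each array. No order is read among the others, since the probes of JUNB (-0.49 and -0.05) and of FOSL2 (-0.47 and 1.43) lay further apart than their genes did from their neighbours. With 1 pair of arrays a likeness of pattern is only a like ratio. Those nearest to FOS were the probes of HES1 (475 and 91.5, -2.41), LDHB (3747 and 685, -2.49) and CCND3 (1728 and 367, -2.27). HES1 is a repressor downstream of Notch, LDHB a subunit of lactate dehydrogenase and CCND3 a D-type cyclin, whose spot lay in the corner. Nearest to JUN were CXorf36 (75.8 and 24.7, -1.66), RAB15 (208 and 68.3, -1.65) and RGS2 (8923 and 2930, -1.64). RAB15 is a small GTPase of endosomes and RGS2 a regulator of G-protein signaling.

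The genes around AP-1 were read from lists of its bZIP partners, of upstream kinases and promoter factors, of coregulators and turnover factors, and of reported targets. Each count below stands beside 0.883% lower and 1.36% higher over all gene names, and with 1 array per condition nothing is read from a list's share. Among 31 bZIP partners, of which 27 were detected on at least 1 array, 1 was lower (3.70%) and 3 were higher (11.1%) at 2-fold, all outside the corner. CREB1, which binds CRE sites, was lower, with 86.7 and 37.4, a log2 ratio of -1.25, at a single detected probe of 3. CREM, its relative with activator and repressor isoforms, was higher, with 318 and 760 (1.22) and, at another probe, 179 and 400 (1.13). Of its dimmer probes 1 had -0.06 and 1, not detected after siRNA, was 1.71-fold lower against the lowest detected signal. JDP2, a repressor that pairs with JUN, was higher with 486 and 1176 (1.24), and BACH2, a repressor that pairs with small MAF proteins, with 1564 and 3463 (1.11). The brightest of the list were NFE2L1, saturated on both arrays and so without a ratio, ATF4 (2560 and 2848, 0.12) and MAFG (1889 and 3296, 0.77, with 0.99 at its other probe). The median over the 26 measured partners was 0.01.

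The next list held the kinases that feed AP-1 and factors on the FOS and JUN promoters. Of 33 genes 32 were found and 31 detected, 0 were lower and 2 (6.45%) higher at 2-fold by the brightest probe, and the median of 30 measured genes was -0.05. Both higher genes were corner spots, and in the corner 5.63% of all probes were higher. MAPK13, a p38 kinase, had 50.3 and 126 (1.28) at its brighter probe and -0.17 at the other. MEF2C, a factor at the JUN promoter, had 13.8, not well above background, and 71.6. Set against the lowest detected untreated signal (14.9), this was 4.67-fold higher. That fold is a nominal bound, since some undetected spots were brighter than 14.9. At dimmer probes, MEF2A, a relative of MEF2C, had 320 and 145 (-1.17, in the corner) against -0.44 at its brightest probe, and STAT3, a cytokine-activated factor, had 3.85, not well above background, and 32.0 (a log2 bound of 1.06) against 0.08 at its brightest. Transcript levels do not show kinase activity. The brightest were RPS6KA3 (5508 and 5078, -0.15, with -0.81 at its other probe), MAPK7 (4517 and 3538, -0.39) and MAP2K4 (2744 and 1860, -0.60), the kinase that activates the JUN kinases.

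Of 20 coregulators and turnover factors 17 were detected, and 0 were past 2-fold in either direction by the brightest probe, with a median of -0.24. The brightest were ZFP36L1 (32601 and 28289, -0.24), which promotes decay of short-lived mRNA, NACA (18864 and 15333, -0.33), a coactivator of JUN, and HNRNPD (13409 and 9580, -0.52), which binds AU-rich mRNA such as that of FOS and had -1.05 at its other measured probe. ELAVL1, which stabilizes AU-rich mRNA, had 65.1 and 32.4 (-1.04) at a dimmer probe against -0.16 at its brightest. The list median and the brightest genes stand beside a median of -0.26 over all measured probes with an untreated signal of 1000 or more.

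Of 34 reported AP-1 targets 27 were detected, 1 was lower and 0 were higher at 2-fold, and the median of 26 measured genes was -0.03. DUSP1, the phosphatase that switches off mitogen-activated protein kinases, was lower with 226 and 54.2, a log2 ratio of -2.10, at a corner spot. DUSP1 is itself an immediate early gene. The brightest targets were HMGA1 (8751 and 6001, -0.58, in the corner), CDKN2A (647 and 559, -0.25) and MMP9 (385 and 404, 0.04). The targets dim on both arrays were 7, MMP3, MMP13, CXCL8, CSF2, IL2, SPP1 and EGFR, for which the arrays cannot show a change.

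**Figure D5:**
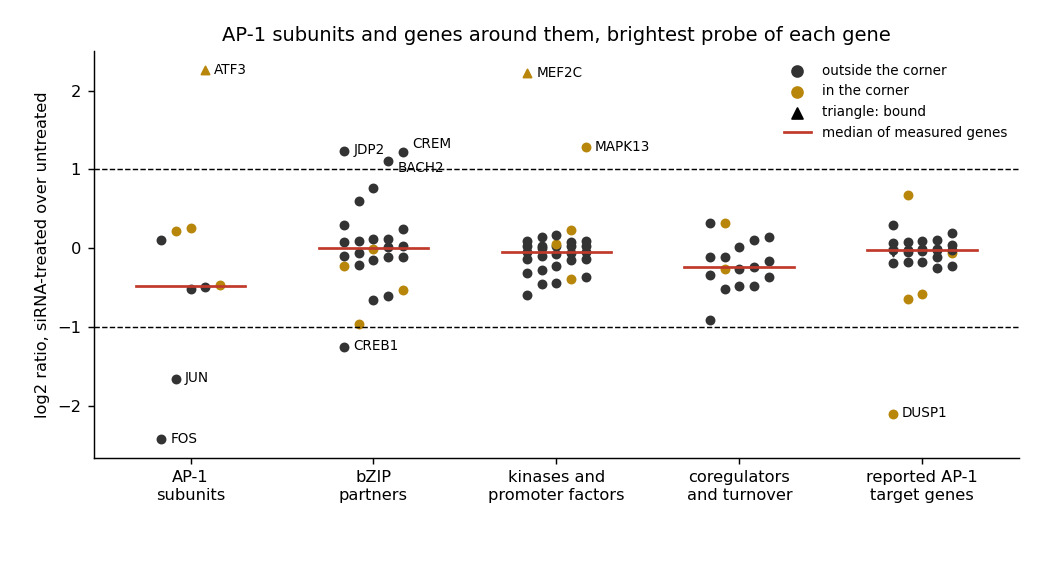
Log2 ratio of siRNA-treated over untreated cells for the brightest probe of each gene, for the AP-1 subunits and for 4 lists of genes around them, with triangles for bounds, coloured points for corner spots, a line at the median of the measured genes and dashed lines at 2-fold. FOS (-2.42) stands below every list gene and JUN (-1.65) below all but DUSP1 (-2.10), and the list medians lie between -0.24 and 0.01.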

How the data were processed

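RNA of 2 cultures, 1 per condition, was hybridized to 1-color Agilent whole-genome arrays. The deposited intensity values were made by the authors with Agilent Feature Extraction (version 9.5.3.1 per the file headers; the labels give another), with background subtraction and trend correction within each array and no scaling between arrays. The authors' deposited series values matched the raw median brightness of every probe printed once within 1 unit and served as an alternative.

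Spots other than controls were scaled by the array median (48.9 and 50.1), set to at least 0.01, put on the log2 scale and averaged by probe. A probe was measured where 50% or more of its spots were well above background. A gene was read from its brightest probe and called at a log2 ratio of 1 or more in either direction. A probe dim on 1 array gave a bound, set against the lowest detected signal (14.9 and 17.5) where that was higher. This bound is nominal, since some undetected spots were brighter than that signal. Named were all members, called and the 3 brightest list genes, TACSTD1, GAPDH, ACTB and the 3 probes nearest to FOS and to JUN. Python 3.11.15, R 4.3.3 and limma 3.58.1 were used. The code for ratios and calls was checked on simulated data. With 1 array per condition, the number of arrays limits the precision and the conditions were not tested against each other. The alternatives were other scalings, background corrections, floors, filters, probe rules and thresholds, local centring and leaving out the corner. Members, lists, the corner and alternatives were chosen with earlier results of these data known.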

Additional observations from a re-analysis of the deposited data

How the results depend on the processing

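FOS and JUN were lower at more than 2-fold in all 15 alternatives that gave them a value, with log2 ratios from -2.81 to -2.28 for FOS and from -2.29 to -1.35 for JUN. Beyond the spread of repeated spots, FOS moved to -2.81 under normexp background correction, and JUN to -2.29 under normexp, -1.35 under quantile normalization and -1.82 with the series value table. The normexp fit was moved by 1 spot dimmer than its local background, which shifted the median of measured probes by -0.18. Without that spot, a setting added after seeing the data, FOS was -2.34 and JUN -1.65. The number of members higher at 2-fold went from 1 to 0 under normexp, with the series value table and without the corner. There ATF3 had 0.92, 0.97 and no value. Normexp carried an offset of 50 and the series values keep the background, which makes the ratios of dim probes smaller. How far this lowered the value of ATF3 was not tested. The bound of ATF3 was 1.14 under normexp without that spot, 1.57 with plain subtraction and 1.78 when centred on neighbours. FOSL2 turned to 0.48 with the mean over its measured probes, FOSL1 to -0.05 under normexp, and FOSB to -0.07 under normexp and -0.08 with the series value table. BATF was 0.01 with plain subtraction and 0.07 with the series value table. JUND ranged from -1.20 under normexp, where 3 members were lower, to -0.16. The counts over all probes moved most, at 2-fold from 77 to 1062 lower and from 63 to 1066 higher. With the looser threshold of a ratio above 1.5, 1194 were higher. No paired analysis was possible because each condition had 1 array.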
